A study of Mus musculus with 12 samples.

Results

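The microRNAs (miRNAs) mmu-miR-10a, mmu-miR-10b, mmu-miR-196a and mmu-miR-196b are encoded inside the Hox gene clusters. These 4 of the 611 mouse miRNAs on an array were found by name and followed through fat cell differentiation of 3T3-L1 cells, mouse fibroblasts of an established line that can become fat cells in culture. There were 4 groups of 3 arrays. Lithium plus MDI cells received lithium chloride at 25 mM, which inhibits the kinase GSK3 and so activates WNT signalling, together with the differentiation medium MDI. MDI cells spent 3 days in that medium, a mix of dexamethasone, insulin and IBMX (which blocks phosphodiesterases), then 2 days in insulin and 2 days in plain medium, to day 7. Lithium cells had 25 mM lithium chloride without MDI, and preadipocytes were the undifferentiated cells. The labels give no schedule for the other 3 groups, so time in culture may differ along with treatment. They also name no separate cultures for the 3 arrays of a group, so each p-value covers only the spread among these arrays, which may be technical. The family was chosen by the signal of miR-10b, known from earlier results on these arrays to be lower in MDI cells than in preadipocytes.

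Hox genes encode transcription factors that set positional identity along the body axis, and fibroblasts and preadipocytes keep a Hox pattern that reflects their origin. The miR-10 and miR-196 genes lie within the Hox clusters and have been conserved with them. Mature miRNAs guide Argonaute proteins to messenger RNAs mainly through bases 2 to 8, the seed, and Hox messenger RNAs are among the known targets of both families: miR-196 directs cleavage of the Hoxb8 message, and miR-10 has been shown to act on the HOXD10 message in human cells.

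The mature sequences below, from RefSeq (GRCm38.p6), are shown because the 4 miRNAs fall into 2 seed groups and because the 2 members of each group are nearly identical. Capitals mark the seed.
mmu-miR-10a: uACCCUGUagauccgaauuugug
mmu-miR-10b: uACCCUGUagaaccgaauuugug
mmu-miR-196a: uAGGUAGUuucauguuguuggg
mmu-miR-196b: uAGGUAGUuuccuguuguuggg
All 4 matched a RefSeq entry, where each is named as the 5p strand. Counted from 1 at the 5′ end, miR-10b differs from miR-10a by U12A, with 22 of 23 bases shared. By the same count miR-196b differs from miR-196a by A12C, with 21 of 22 bases shared. Among 1679 mature mouse entries in that table, each of the 2 seeds occurred only in these 2 miRNAs. Mature miR-10a lies at chr11:96317186-96317208 on the plus strand, inside the span of Hoxb3 and beside Hoxb4. Mature miR-10b lies at chr2:74726074-74726096 on the plus strand, inside the spans of Hoxd3 and Hoxd4. Mature miR-196a comes from 2 genes. Mir196a-1 places it at chr11:96265187-96265208 on the plus strand, in the Hoxb cluster with Hoxb9 as the nearest Hox gene, and Mir196a-2 at chr15:102973365-102973386 on the plus strand, in the Hoxc cluster nearest to Hoxc10. The array cannot tell these 2 genes apart, because their mature product is the same. Mature miR-196b lies at chr6:52230129-52230150 on the minus strand, in the Hoxa cluster nearest to Hoxa10.

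Values are log2 of the background-subtracted spot signal divided by the array's 75th percentile, taken over 181 mouse probes that every array detected, so that 0 is that percentile. A floor lay at -4.97, and values at the floor have no order. Up to 178 miRNAs were detected on an array. Of the fibroblast and mesenchymal markers, 5 of 5 were detected, and 4 of them (miR-199a-3p, miR-199a-5p, miR-214 and miR-143) on all 12 arrays. Of 19 markers of epithelial, muscle, blood, neural, liver and endothelial cells, 17 were detected on no array, while miR-205 was detected on 3 and miR-128 on 7. In all, 406 of the 611 miRNAs were detected on no array. For 6 of the 12 arrays, the mean correlation was higher with another group than within the array's own group. The 3 with the lowest mean correlation with their own group, called below the arrays that stood apart, were lithium plus MDI array 3 (0.924, against 0.965 with the preadipocytes), lithium array 1 (0.942, against 0.960 with MDI) and preadipocyte array 3 (0.939, against 0.957 with lithium). The 3 preadipocyte arrays and MDI array 1 were on slide 1, and the other 8 arrays were on slide 2.

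The 4 miRNAs were measured very unevenly. miR-10b was detected on all 12 arrays. miR-10a stayed near the floor and was detected on 8 arrays by the brighter of its 2 probes. Its other probe was detected on none and lay at the floor on all 12, so the miR-10a values below rest on the brighter probe. miR-196a was detected on 8 arrays as well. miR-196b was detected on none by either of its 2 probes. Thus 3 of the 4 were among the 157 miRNAs tested, for which a group with 3 detected arrays was required. miR-10a met this in lithium plus MDI cells and preadipocytes, and its mean was lowest in lithium cells. Its contrasts with lithium are thus those of a miRNA admitted by higher groups, and its own differences there are given with no test. miR-196a met the requirement only in MDI cells, where it was high, so its contrasts with MDI are those of a miRNA admitted by its high group. For miR-196b only the floor of -4.97 is known, as an upper bound. The passenger strands miR-10a*, miR-10b* and miR-196a*, and both strands of miR-615, the miRNA within the Hoxc5 gene, were detected on none of the 12 arrays.

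mmu-miR-10b, the Hoxd member, was highest in undifferentiated cells and lowest after MDI. Its level was -1.07, -1.07 and -0.13 on lithium plus MDI arrays 1 to 3, and -1.12, -1.47 and -2.05 on MDI arrays 1 to 3. It was -1.25, -0.18 and -0.01 on lithium arrays 1 to 3, and 0.41, 0.46 and 0.10 on preadipocyte arrays 1 to 3. All 3 preadipocyte arrays lay above the 9 others, and MDI array 3 lay lowest. The group means were -0.76 ± 0.54 in lithium plus MDI, -1.55 ± 0.47 in MDI, -0.48 ± 0.67 in lithium and 0.32 ± 0.20 in preadipocytes (SD, n = 3 each). From high to low, the order was thus preadipocytes, lithium, lithium plus MDI and MDI, and none of these neighbours differed beyond their spread by limma's moderated test (adjusted p = 0.225, 0.635 and 0.781 in that order). In units of the scanner, the mean signal was 249.9 in lithium plus MDI cells, 114 in MDI cells, 302 in lithium cells and 765 in preadipocytes before scaling.

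**Figure D1:**
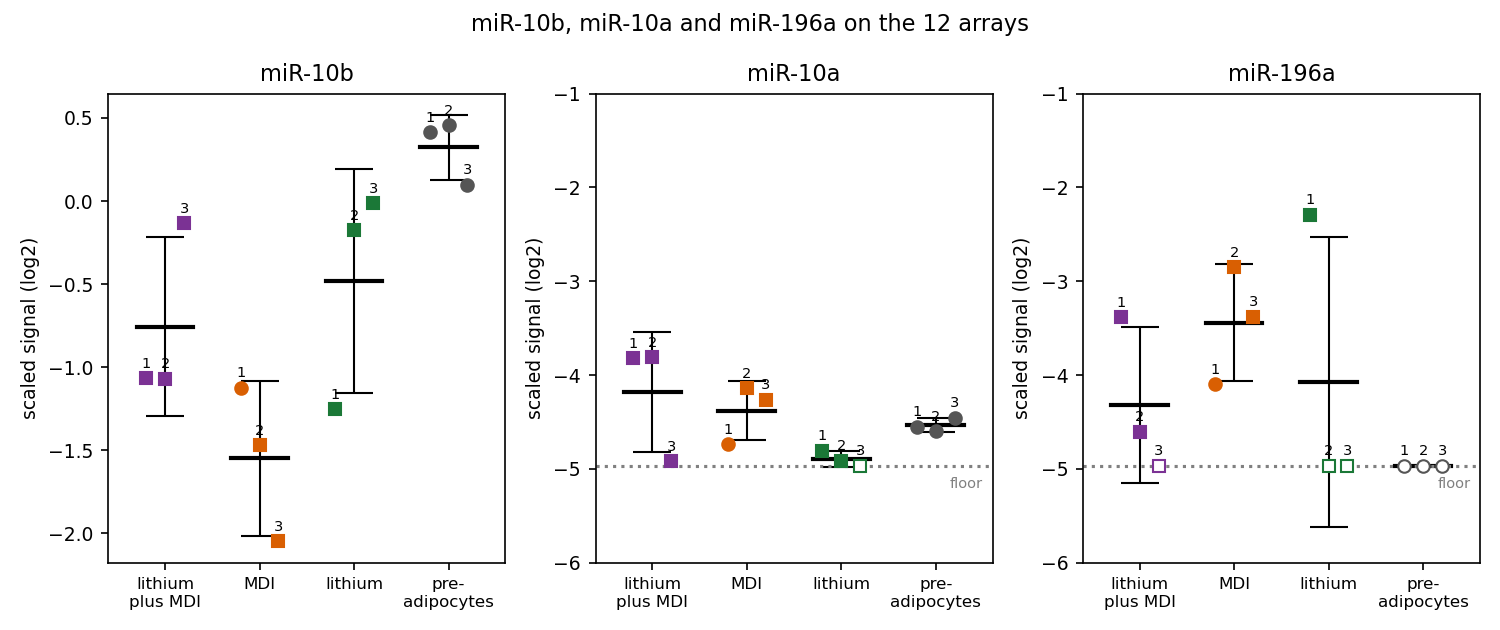
Scaled log2 signal of miR-10b, miR-10a and miR-196a on each of the 12 arrays (vertical axes) by group (horizontal axes). Circles are slide 1 and squares slide 2, numbers are array numbers, open symbols lie at the floor (dotted line), and horizontal bars with whiskers are the mean ± SD of 3 arrays. The 3 preadipocyte arrays were the highest of miR-10b, at 0.10 to 0.46, and all at the floor of miR-196a.

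Both probes of miR-10b, with 10 spots each, were detected on all 12 arrays and gave the same picture. Across the 12 arrays their log2 values correlated at r = 0.990. The MDI difference from preadipocytes was -1.87 by the brighter probe and -1.75 by the other, and the difference of lithium plus MDI from MDI was 0.79 and 0.80. Replicate spots of the brighter probe had a median coefficient of variation of 2.86%. Cell number and cell make-up were not recorded in the sources used here, and in such bulk RNA fewer cells of a type and less RNA per cell cannot be told apart.

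The question of the MDI comparison was which miRNAs change when fat cell differentiation is induced. Because the family was chosen by this contrast of miR-10b, its values are a description with no test. miR-10b was lower by 1.87 on the log2 scale (SE 0.38), a 3.66-fold lower signal, and the 3 MDI arrays did not overlap the 3 preadipocyte arrays. Of the 157 miRNAs, 3.18% passed the threshold of 0.05 (1.91% downward) and 10.8% were lower without overlap. The MDI array on the preadipocytes' own slide, array 1, lay 1.45 below the preadipocyte mean. miR-10a averaged -4.38 ± 0.32 in MDI cells and -4.54 ± 0.07 in preadipocytes (SD, n = 3 each), with overlapping arrays. The difference of 0.15 (SE 0.31) changed sign with the scaling (-0.66 when all mouse probes set the percentile). Since miR-10a was detected on only 1 of the 3 MDI arrays, the MDI mean is an upper bound.

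Lithium alone, set against preadipocytes, asks what lithium chloride does in cells that are not induced to differentiate. These miRNA arrays did not measure WNT signalling itself. miR-10b differed by -0.80 (SE 0.38), with a 95% confidence interval of -1.62 to 0.01, and did not pass (adjusted p = 0.225, limma, with 6.37% of all tested miRNAs called). The 3 lithium arrays all lay below the 3 preadipocyte arrays, as they did for 12.7% of the tested miRNAs. Lithium array 1, at -1.25, lay apart from arrays 2 and 3, and without it the difference was -0.42. This contrast shares its preadipocyte arrays with the contrast that chose miR-10b. All preadipocyte arrays were on slide 1 and all lithium arrays on slide 2, so slide and treatment rest on MDI array 1 to be separated, and with slide as a block the difference was -0.17 (adjusted p = 0.946). miR-10a averaged -4.90 ± 0.08 in lithium cells and -4.54 ± 0.07 in preadipocytes (SD, n = 3 each), a difference of -0.36 given with no test. It was detected on only 1 of the 3 lithium arrays, so the lithium mean is an upper bound and the floor narrows its SD.

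The call in lithium against preadipocytes depended on the scaling. With the percentile set by all mouse probes, miR-10b differed by -1.70 (adjusted p = 0.00842, limma) and miR-10a by -1.13 (adjusted p = 0.00714), where 47.1% of all tested miRNAs were called lower. Without scaling, miR-10b differed by -1.495 (adjusted p = 0.0267) and miR-10a by -0.84 (adjusted p = 0.0257), where 42.7% were called lower. In the authors' deposited table, miR-10a also passed (-0.97, adjusted p = 0.0462, with 7.64% called lower). Of the 2 markers of other cell types that were detected, miR-205 was not among the miRNAs tested. miR-128 did not pass in lithium against preadipocytes (difference -0.93, adjusted p = 0.133, limma). miR-205, an epithelial miRNA, read the floor, -2.76 and -2.35 on lithium arrays 1 to 3, and the floor, the floor and -4.85 on preadipocyte arrays 1 to 3, and was at the floor on all MDI and lithium plus MDI arrays. miR-128, a neural miRNA, was at the floor on all 3 lithium arrays, and read -3.66, -3.58 and -4.89 on preadipocyte arrays 1 to 3. The scaled signal summed over the 19 markers, on the linear scale with the floor applied, was 0.62 to 0.65 in lithium plus MDI, 0.61 to 0.64 in MDI, 0.61 to 0.77 in lithium and 0.61 to 0.66 in preadipocytes. Their part in the lithium results was not tested.

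The contrast of lithium plus MDI with lithium, which shares no array with the one that chose the family, asks what MDI does when lithium is present. miR-10b differed by -0.28 (SE 0.38), with a 95% confidence interval of -1.09 to 0.54, and did not pass (adjusted p = 0.635). The arrays overlapped, because lithium array 1 and lithium plus MDI array 3 each lay with the other group. Over all miRNAs limma called 0 of 157 (0%) in this contrast, while 48 had an unadjusted p under 0.05 and 33.8% did not overlap. mmu-miR-10a differed by 0.71 (SE 0.31), given with no test. It read -3.82, -3.81 and -4.92 on lithium plus MDI arrays 1 to 3, and -4.81, -4.91 and the floor on lithium arrays 1 to 3. Only lithium plus MDI arrays 1 and 2 stood above the lithium arrays. By the mean of both miR-10a probes, the dimmer of which lay at the floor throughout, the difference was 0.36. All 6 arrays of this contrast were on slide 2.

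The values of that contrast turned on single arrays. Without lithium plus MDI array 3, which had the lowest mean correlation with its own group, miR-10a differed by 1.08 and miR-10b by -0.59. Without all 3 arrays that stood apart, an alternative chosen after seeing the data, miR-10b differed by -0.97 and miR-10a by 1.13. These arrays resembled other groups. Leaving them out, or lithium plus MDI array 3 alone, widens the gap between groups by construction, so the values of both alternatives are given with no test.

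Set against MDI alone, lithium plus MDI asks what lithium does to cells under induction. miR-10b was 0.79 higher on the log2 scale in lithium plus MDI (SE 0.38), with a 95% confidence interval of -0.03 to 1.61, and did not pass (adjusted p = 0.781). All 3 lithium plus MDI arrays lay above the 3 MDI arrays, although the nearest, at -1.07 in lithium plus MDI and -1.12 in MDI, were almost equal. Such a gap upward was seen for 11.5% of the tested miRNAs. Of all 157 tested, limma called 0%, and 6 had an unadjusted p under 0.05 in either direction. On slide 2 alone, without MDI array 1, the difference was 1.00 (adjusted p = 0.461). The MDI arrays are among those that chose miR-10b. miR-10a differed by 0.20 (SE 0.31, adjusted p = 0.952) with overlapping arrays.

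All 3 lithium plus MDI arrays lay below all 3 preadipocyte arrays in miR-10b. The difference was -1.08 (SE 0.38), with a 95% confidence interval of -1.90 to -0.26, and did not pass after adjustment (adjusted p = 0.210). Of the 157 miRNAs, 3.82% were lower without overlap and 1.27% were called in either direction. Without lithium plus MDI array 3 it was -1.39 (adjusted p = 0.0265, with 4.46% of miRNAs called lower). That array resembled the preadipocytes, so leaving it out widens this gap by construction. The p-value without it is therefore not counted as a pass. With all arrays and the percentile set by all mouse probes, the difference was -2.13 and passed (adjusted p = 0.0121, where 28% were called lower). Without all 3 arrays that stood apart it was -1.50, given with no test. The fit with slide as a block gave -0.45 (adjusted p = 0.770), and this contrast, too, shares its preadipocyte arrays with the one that chose the family. miR-10a differed by 0.35 (SE 0.31, adjusted p = 0.532). Without lithium plus MDI array 3 it differed by 0.72, given with no test, while with the percentile set by all mouse probes the sign turned (-0.70).

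The interaction, the effect of MDI under lithium less its effect in cells with no lithium, was 1.59 for miR-10b (SE 0.54). It contains the contrast that chose the family and is given with no test. In numbers, MDI cells lay 1.87 lower than preadipocytes on the log2 scale without lithium, while lithium plus MDI cells differed by -0.28 from lithium cells. Over all miRNAs 0% were called for this interaction and 35 had an unadjusted p under 0.05.

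**Figure D2:**
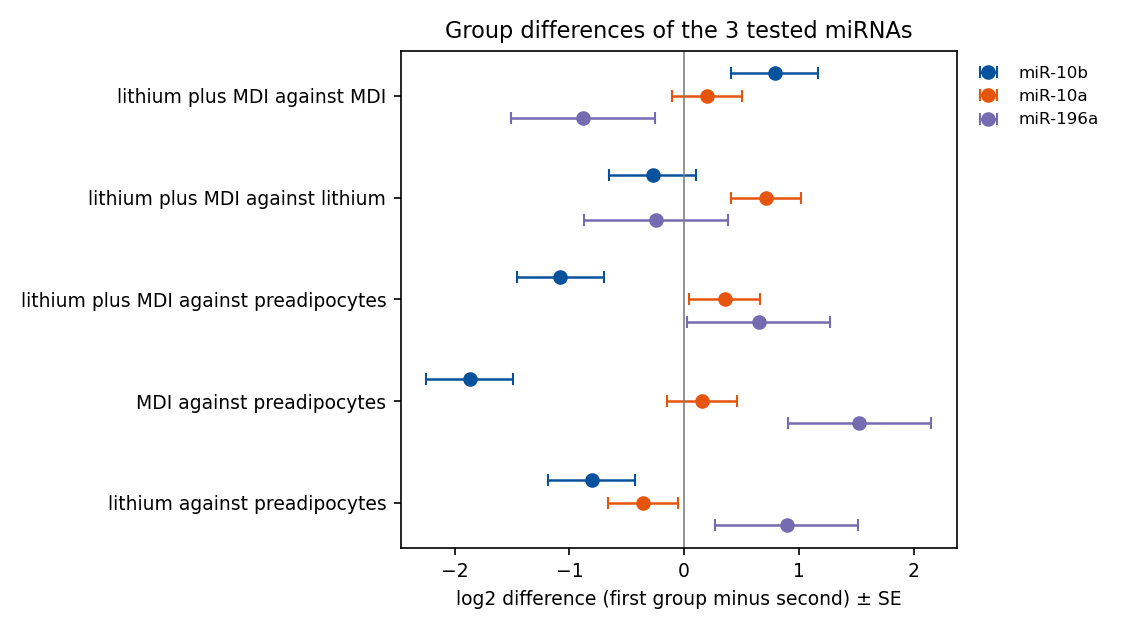
Log2 difference (horizontal axis, first group minus second, points with whiskers of 1 SE from limma) of miR-10b, miR-10a and miR-196a in 5 comparisons of 3 against 3 arrays. miR-10b lay below 0 in the 3 comparisons with preadipocytes and above 0, at 0.79, in lithium plus MDI against MDI. For miR-196a the point for MDI against preadipocytes is a lower bound set by the floor. Its other points have arrays at the floor in a treated group and are not bounds.

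The 2 miRNAs with the miR-10 seed were then compared within each array. Whether the probes of one also bind the other, which is nearly identical, was not tested, as the probe sequences were not at hand. In preadipocytes the mean scanner signal was 26.9 for miR-10a and 765 for miR-10b. The log2 signal of miR-10b minus that of miR-10a on the same array does not depend on scaling where both lie above the floor. The floor is set after scaling, so at the floor it does. The measure shows unequal change, not levels. It was 2.75, 2.74 and 4.78 on lithium plus MDI arrays 1 to 3, and at least 3.61, 2.67 and at least 2.21 on MDI arrays 1 to 3. It was at least 3.55, 4.74 and at least 4.95 on lithium arrays 1 to 3, and 4.96, 5.06 and 4.55 on preadipocyte arrays 1 to 3. The lower bounds mark the 4 arrays on which miR-10a was not detected, MDI arrays 1 and 3 and lithium arrays 1 and 3. Of the 8 arrays with both miRNAs detected, MDI array 2 and lithium plus MDI arrays 1 and 2 lay lowest, and lithium plus MDI array 3 lay among the preadipocytes.

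As read, the measure averaged 2.83 ± 0.71 in MDI cells and 4.86 ± 0.27 in preadipocytes (SD, n = 3 each). Since 2 of the 3 MDI values are lower bounds, whether these groups overlap is not settled. In the other 3 contrasts the values as read overlapped. Their difference was -0.99 for lithium plus MDI against lithium (exact permutation p = 0.3), 0.59 for lithium plus MDI against MDI (exact permutation p = 0.5) and -0.44 for lithium against preadipocytes (exact permutation p = 0.5). Each of these contrasts includes 2 bounds. All 3 tests were two-sided, their adjusted values were 0.5, and the smallest p that 3 against 3 arrays allow is 0.1.

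**Figure D3:**
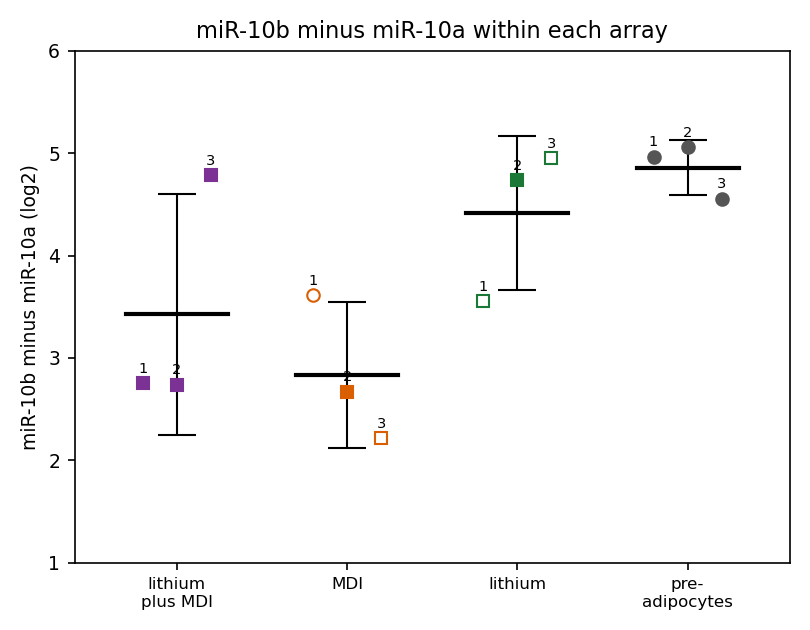
Log2 signal of miR-10b minus that of miR-10a within each array (vertical axis) by group (horizontal axis), with the mean ± SD of 3 arrays. Circles are slide 1, squares slide 2, and the 4 open symbols are lower bounds because miR-10a was not detected. MDI array 2, the MDI array with both miRNAs detected, lay at 2.67 and the preadipocyte arrays at 4.55 to 5.06.

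mmu-miR-196a, the product of the Hoxb and Hoxc clusters, was dim, and brightest on arrays low in miR-10b. On MDI arrays 1 to 3 its level was -4.10, -2.85 and -3.38, and all 3 preadipocyte arrays lay at the floor of -4.97, where it was detected on 1 array of 3. With the scaling and probe reported here, MDI cells thus read at least 2.88-fold more miR-196a signal than preadipocytes, given with no test. Over the alternatives run, this log2 difference of 1.53 ranged from 0.24 to 2.16, so the bound holds for the reported processing only. Of the tested miRNAs, 15.9% were higher without overlap. On the preadipocytes' own slide, MDI array 1 lay 0.87 above the floor. miR-196a read -3.39, -4.61 and the floor on lithium plus MDI arrays 1 to 3, and -2.29, the floor and the floor on lithium arrays 1 to 3. The level in lithium cells rested on array 1 alone, which gave the brightest reading of the 12.

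No test of miR-196a passed. Lithium plus MDI, with 1 array at the floor, differed from MDI by -0.88 (SE 0.63). That value is given with no test, because miR-196a was admitted only through its high MDI arrays. Against preadipocytes, all at the floor, the log2 difference with the floor applied was 0.65 in lithium plus MDI (adjusted p = 0.569, limma). In lithium it was 0.89 (adjusted p = 0.382, limma). Since both treated groups also had arrays at the floor, these differences are not bounds. The lithium difference rested on array 1, and without it the lithium arrays were at the floor as well. Between lithium plus MDI and lithium, with 3 of 6 arrays at the floor, the adjusted p was 0.790. Its 4 probes, with 5 spots each, were detected on 2, 4, 8 and 9 arrays, and all 4 gave MDI differences from preadipocytes above 0, from 0.43 to 1.53 with the floor applied.

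Read array by array, no array was high in both miR-196a and miR-10b. This was seen only after the values were known and is given with no test. miR-196a lay above the floor on 6 arrays, which were all 3 MDI arrays, lithium plus MDI arrays 1 and 2, and lithium array 1. On these, miR-10b read between -2.05 and -1.07. On the other 6 arrays, with miR-196a at the floor, miR-10b read between -0.18 and 0.46. The division did not follow the labelled groups, since lithium array 1 and lithium plus MDI array 3, both arrays that stood apart, each lay on the other side from the rest of their group.

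**Figure D4:**
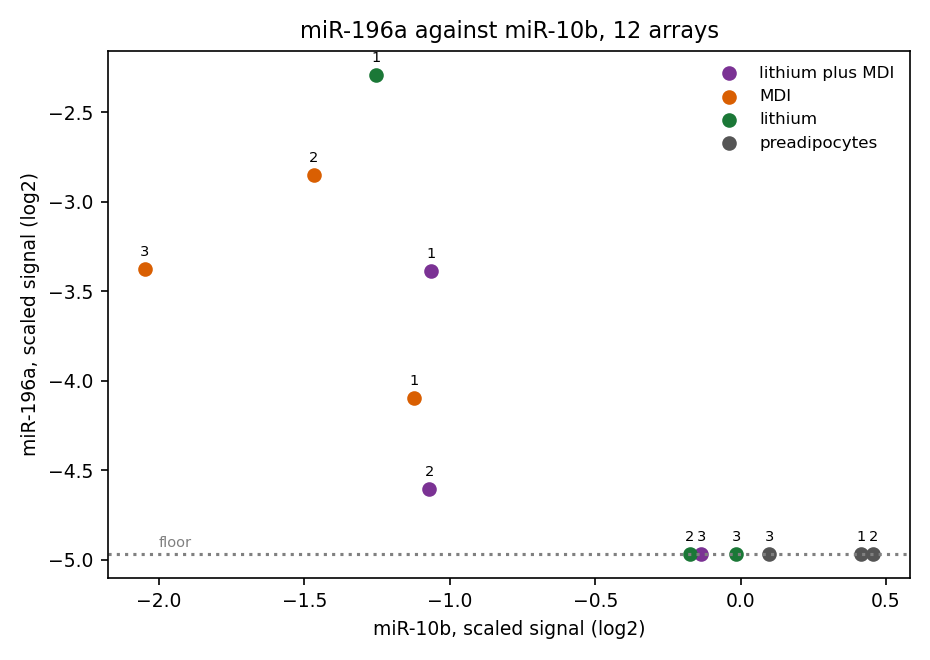
Scaled log2 signal of miR-196a (vertical axis) against that of miR-10b (horizontal axis) on the 12 arrays, coloured by group, with array numbers and the floor as a dotted line. The 6 arrays with miR-196a above the floor had miR-10b at -1.07 or lower, and the 6 at the floor had it at -0.18 or higher.

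The nearest relatives of miR-10 in sequence lie outside the Hox clusters. miR-99a and miR-100 share an inner run of bases with miR-10a but not its seed, and are shown with that run in capitals (RefSeq, GRCm38.p6).
miR-99a: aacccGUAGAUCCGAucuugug
miR-100: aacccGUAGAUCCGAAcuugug
The shared run is 10 bases in miR-99a and 11 in miR-100. The relatives were taken as miR-99a, miR-99b, miR-100, miR-125a-5p and miR-125b-5p, the last 2 being cluster partners of the miR-99 and miR-100 genes. All 5 were detected on all 12 arrays, and none passed the test in any of the 5 contrasts between groups, in which 0% to 6.37% of all 157 miRNAs were called. Their median difference was 0.04 for MDI against preadipocytes (0.10 over all 157 miRNAs), -0.57 for lithium against preadipocytes (-0.07 over all), 0.49 for lithium plus MDI against lithium (0.39 over all), 0.03 for lithium plus MDI against MDI (0.18 over all) and -0.08 for lithium plus MDI against preadipocytes (0.30 over all).

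miR-99a was the relative with the widest spread. It read -2.20, -2.53 and -0.15 on lithium plus MDI arrays 1 to 3, and -2.45, -1.92 and -2.88 on MDI arrays 1 to 3. It read -1.59, 0.12 and 0.13 on lithium arrays 1 to 3, and -0.85, -0.94 and 0.98 on preadipocyte arrays 1 to 3. The 6 arrays low in miR-10b were also the 6 lowest in miR-99a, at -2.88 to -1.59, against -0.94 to 0.98 on the other 6. The MDI difference from preadipocytes was -2.14 (SE 0.67) and did not pass (adjusted p = 0.0830, limma). miR-100 stayed within -2.50 to -1.63 on all arrays, and its MDI difference was -0.46 (SE 0.22, adjusted p = 0.290). miR-125b-5p averaged 3.13 in lithium plus MDI, 3.24 in MDI, 2.64 in lithium and 3.21 in preadipocytes.

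By Pearson's r over the 12 arrays, which share scaling and slides, the 3 tested miRNAs most like miR-10b were miR-181a (r = 0.886), miR-210 (r = 0.875) and miR-30d (r = 0.837). Within groups, after the group means were taken off, these were 0.65, 0.83 and 0.74. These r values are descriptions among 154 candidates, chosen for being the highest. miR-181a read -2.65, -2.96 and -1.36 on lithium plus MDI arrays 1 to 3, -2.72, -3.20 and -3.63 on MDI arrays 1 to 3, -2.20, -2.55 and -2.13 on lithium arrays 1 to 3, and -1.29, -1.51 and -1.795 on preadipocyte arrays 1 to 3. Like miR-10b, it had all 3 MDI arrays below all 3 preadipocyte arrays, and lithium plus MDI array 3 near the preadipocytes. miR-210, the hypoxia-induced miRNA, differed by -1.58 between MDI cells and preadipocytes (SE 0.44), and miR-30d by -0.65 (SE 0.27).

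For miR-10a the closest were miR-224 (r = 0.905), miR-374 (r = 0.889) and miR-350 (r = 0.834). Like miR-10a, miR-350 averaged more in lithium plus MDI (-1.42) than in lithium cells (-2.32), a difference of 0.91 that did not pass (SE 0.30, adjusted p = 0.0788). For miR-196a they were miR-1894-3p (r = 0.793), miR-324-3p (r = 0.792) and miR-34b-3p (r = 0.725), which were detected on 7, 7 and 9 arrays. Values at the floor weigh in these last correlations.

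**Figure D5:**
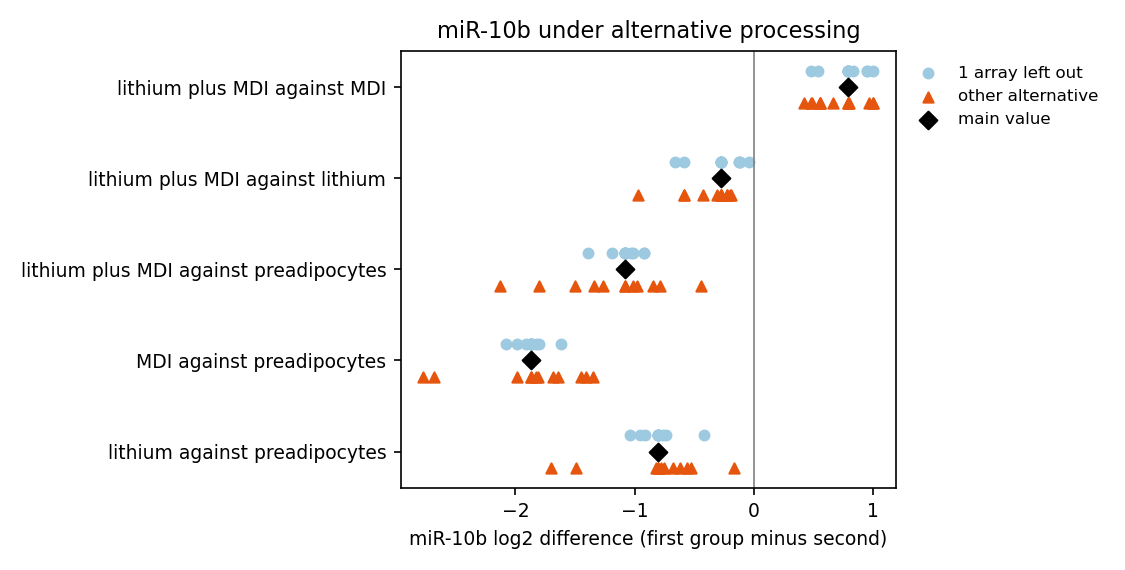
Log2 difference of miR-10b (horizontal axis, first group minus second) in 5 comparisons, as reported (diamond), with 1 array left out (circles) and under the other alternatives (triangles). In every comparison the sign stayed the same, from -2.77 to -1.35 for MDI against preadipocytes and from -1.70 to -0.17 for lithium against preadipocytes.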

How the data were processed

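The 12 samples of total RNA, 0.5 ug each, were hybridised to 1-colour Agilent miRNA arrays. Spot intensity was background-subtracted without any step between arrays, per the file headers, which name Feature Extraction 10.5.1.1. The submitters' processing notes name 9.5.3. The authors' deposited value table, read as log2, correlated with the log2 total gene signal at r = 0.997 or above. Its centring and steps are not given in the sources used here, and it served as an alternative. From the spot intensity, outlier spots were left out, spots averaged per probe, and each array divided by its 75th percentile over 181 probes detected on all arrays. The floor was the 5th percentile of well-above-background values. The brightest probe stood for each miRNA. No spot was saturated, and 9.02% of tested values lay at the floor. limma 3.58.1 in R 4.3.3 fitted 4 group means to 12 arrays, two-sided, with Benjamini-Hochberg adjustment over 157 miRNAs. Exact permutation used scipy 1.17.1, and figures matplotlib 3.10.9. The scripts were tested on simulated data. Arrays give no counting depth, and the number of arrays limits the precision (median SE 0.335). The 4 miRNAs, the lists, the marker sets and the named miRNAs (these 4, their other strands, miR-615, the relatives, and the 3 most alike to each) were chosen with earlier results of these data known. Replicate numbers were not shown to pair the samples, and the reported fit did not use them as pairs.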

Additional observations from a re-analysis of the deposited data

How the results depend on the processing

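miR-10b kept its sign in all 6 contrasts under every alternative run. Relative to preadipocytes, scaling decided the size. With the percentile over all mouse probes, the median of all tested miRNAs shifted to -0.64 for MDI, -0.90 for lithium and -0.65 for lithium plus MDI, and without scaling to -0.70, -0.69 and -0.33. After that median was taken off, miR-10b lay at -1.98 (as reported), -2.04 (all probes) and -2.07 (no scaling) for MDI against preadipocytes.

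With the percentile over all mouse probes, miR-10b read -2.68 for MDI, -1.70 for lithium (adjusted p = 0.00842) and -2.13 for lithium plus MDI against preadipocytes (adjusted p = 0.0121), and 2.25 for the interaction. miR-10a read -0.66, -1.13 and -0.70 in the same 3 contrasts, 1.09 for the interaction and -0.039 for lithium plus MDI against MDI. Without scaling, miR-10b read -2.77 for MDI, -1.50 for lithium (adjusted p = 0.0267, limma) and 2.46 for the interaction. There miR-10a read -0.56 for MDI, -0.84 for lithium, -0.37 for lithium plus MDI against preadipocytes and 1.03 for the interaction. Under quantile normalization miR-10a read -0.33 for MDI and -0.25 for lithium plus MDI against preadipocytes. In the authors' deposited table miR-10a read -0.33, -0.97 and -0.28 for MDI, lithium and lithium plus MDI against preadipocytes and 1.02 for the interaction. In that table miR-10b read 1.095 for the interaction, and miR-10b minus miR-10a read 0.29 for lithium and -1.35 for MDI against preadipocytes. Signs of miR-10a thus depended on the scaling.

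The normexp background fit put the background of preadipocyte array 1 at -664, against 9.31 to 22.6 on the other 11 arrays, so its values for preadipocytes carry little weight. It gave miR-10a -0.28 for MDI, -0.080 for lithium plus MDI against MDI and -0.35 for lithium plus MDI against preadipocytes, miR-10b -1.35 for MDI, and miR-196a 0.24 for MDI, -0.12 for lithium, -0.21 for lithium plus MDI against preadipocytes and -0.33 for the interaction. miR-10b minus miR-10a was -1.07 for MDI. With that array left out, added after seeing the data, miR-10a read 0.64 for MDI, 0.38 for lithium, -0.080 for lithium plus MDI against MDI and -0.46 for the interaction.

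Slide as a block turned miR-196a to -0.089 for lithium and -0.33 for lithium plus MDI against preadipocytes, and miR-10a to -0.18 for the second. Without the 3 arrays that stood apart, added after seeing the data and given with no test since it widens group gaps by construction, miR-10b read -0.97 for lithium plus MDI against lithium, -1.50 for lithium plus MDI against preadipocytes and 1.01 for the interaction. miR-10a read 1.13, 0.76 and 0.93, miR-196a read 0.97 for the first and -0.55 for the interaction, and miR-10b minus miR-10a was -2.10 for the first. The causes of these shifts were not tested.

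Leaving out 1 array at a time gave miR-10b -0.66 to -0.04 for lithium plus MDI against lithium, -1.39 to -0.92 for lithium plus MDI and -1.04 to -0.42 for lithium against preadipocytes. miR-10a gave 0.53 to 1.08 for lithium plus MDI against lithium, 0.17 to 0.72 for lithium plus MDI against preadipocytes and 0.37 to 0.93 for the interaction, and miR-196a -0.71 to 0.65 for lithium plus MDI against lithium.

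The replicate numbers were not shown to pair arrays: 9 of 18 same-number pairs correlated above 0.1, from -0.48 to 0.47, and 4 of 12 arrays correlated best with their own number. With the number as a replicate block miR-10b stayed at -1.87 for MDI against preadipocytes, no call of the 3 miRNAs changed, and the calls over all miRNAs moved to 16 for lithium plus MDI against lithium and 4 for the interaction, from 0 each. Over all alternatives the calls ranged from 0 to 62 for MDI (5 as reported), 0 to 83 for lithium (10) and 0 to 44 for lithium plus MDI against preadipocytes (2), 0 to 88 for lithium plus MDI against lithium (0) and 0 to 69 for the interaction (0), and were 0 throughout for lithium plus MDI against MDI. Of the MDI calls 2 of 5 were higher as reported, against 1 of 48 with all probes and 1 of 62 without scaling. Signal near background limits miR-10a and miR-196a, and allows no statement on miR-196b beyond the floor.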
